A study of Rattus norvegicus with 20 samples.

Results

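The miRNA profile of rat dorsal root ganglia (DRGs) after 6 months of sciatic nerve entrapment was compared with that of sham-operated rats. The members were chosen by the labels of the scanner files: the 3 DRG arrays labelled as entrapment for 6 months and the 1 DRG array labelled as sham, 4 of the 20 arrays of the study. All animals were adult male Sprague-Dawley rats. In the entrapment rats, a short non-constrictive silastic tube was laid around the right sciatic nerve and left in place for 6 months. The DRGs were those of the operated side. The Methods give L4-L6 for the spinal segment taken with them and do not plainly state the levels of the DRGs. The sham rats had a sham operation, and its time before harvest was not labelled. According to the Methods 3 rats of each group, sham among them, went to the arrays, but only 1 sham array carries a DRG label, and it is not stated whether it was made from 1 rat or from pooled RNA. The other DRG arrays, used here to estimate the spread between arrays and for context, were 3 of rats whose sciatic nerve had been cut for 6 months (denervation) and 3 of rats decompressed for 3 months after an entrapment of 6 months.

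DRGs hold the cell bodies of the sensory neurons whose axons run in the sciatic nerve, wrapped by satellite glia and accompanied by Schwann cells, vessels and resident immune cells. A miRNA is a short RNA cut from a hairpin precursor. Either strand of the hairpin can be loaded into the silencing complex, where the bases near its 5′ end, the seed, pair with target mRNAs, and the strand that is usually less abundant carries an asterisk in the older names used on these arrays. After injury of a peripheral axon, sensory neurons and their glia are known to change their miRNA content.

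The results turned on a small number of miRNAs, whose mature sequences are shown here from RefSeq (build GRCr8), 5′ to 3′, with the seed (bases 2 to 8) in capitals. Of the 46 array names looked up, 43 matched. The first set shows miRNAs from among the deepest falls after entrapment relative to sham, together with both strands of the miR-338 and miR-29a hairpins, whose strands had differences from sham of opposite sign.
miR-190: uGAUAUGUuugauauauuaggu
miR-125a-3p: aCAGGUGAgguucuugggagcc
miR-872*: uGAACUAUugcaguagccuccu
miR-487b: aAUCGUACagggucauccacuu
miR-339-3p: uGAGCGCCucgacgacagagcca
miR-450a: uUUUGCGAuguguuccuaaugu
miR-29a*: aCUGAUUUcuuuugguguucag
miR-29a: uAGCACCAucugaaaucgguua
miR-338*: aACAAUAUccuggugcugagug
miR-338: uCCAGCAUcagugauuuuguuga
The second set shows miRNAs that share a seed, miR-222 with miR-221, miR-30c with miR-30a and miR-30e, and miR-29b and miR-29c with the miR-29a above. It also shows miR-9 and miR-324-3p, from among the miRNAs with moderate to high signal that fell.
miR-222: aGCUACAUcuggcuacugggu
miR-221: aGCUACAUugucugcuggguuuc
miR-30c: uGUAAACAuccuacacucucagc
miR-30a: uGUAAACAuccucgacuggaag
miR-30e: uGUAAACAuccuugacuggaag
miR-29b: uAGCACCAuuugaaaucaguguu
miR-29c: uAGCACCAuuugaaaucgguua
miR-9: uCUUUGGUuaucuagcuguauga
miR-324-3p: cCACUGCCccaggugcugcugg

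In GRCr8, miR-190 lies at chr8:76732228-76732249 within the span of Tln2, miR-125a-3p at chr1:67350727-67350748 within Spaca6, miR-872* at chr5:114654872-114654893 within Ift74, and miR-338 at chr10:105796345-105796367 within Aatk. miR-324-3p lies at chr10:55233413-55233434 within Acadvl. The annotation table used gives gene spans only, so exon and intron were not told apart. miR-9 is encoded at 3 loci, 1 on chromosome 1 and 2 on chromosome 2, and miR-30c at 2, one on chromosome 5 within the Nfyc span, next to miR-30e, and one on chromosome 9. miR-29a at chr4:60617968-60617989 starts 374 bases from one of the 2 loci of miR-29b, and no annotated gene other than miRNA genes spans miR-29a.

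For each array, the total gene signal of each miRNA was used, a background-subtracted intensity summed over its probes, together with a call of whether it was detected. Signals were scaled so that the 75th percentile over the 348 miRNAs with 1 name in all files was equal on all 10 DRG arrays. Scaled signals below a floor of 2.31, the median of the arrays' lowest detected signals, were set to it before taking log2. Those lowest detected signals ran from 0.653 on entrapment 2 to 4.25 on denervation 2, so a signal at the floor was not always an undetected one. The tested miRNAs were the 219 detected on at least 3 of the 10 arrays. Brightness and detection followed the groups. The unscaled 75th percentile was 99.7 on the sham array, 97.5 to 117 after denervation, 72.0 to 88.1 after entrapment and 75.5 to 85.0 after decompression. Among the 45 control features, which carry no rat miRNA, 24 had signals on the 4 arrays of sham and denervation that did not overlap those on the 6 of entrapment and decompression. The part of array handling in the differences below was not tested, and in these files it cannot be told apart from the groups. The deposited table of processed values names the 6 entrapment and decompression arrays the other way round from the scanner labels followed here. miRNAs of neurons were present. miR-124 and miR-138, known for neurons, and miR-183, known for sensory neurons, were detected on all 10 DRG arrays and on 0 of the 10 soleus muscle arrays of the same study. Other miRNAs of the same kind set the tissues apart less. miR-182 and miR-96 were detected on all 10 DRG arrays but also on 2 and 1 soleus arrays, miR-129 on 2 DRG arrays and 0 of soleus, and miR-132 on none. miR-128 was detected on all 20, with a median unscaled signal of 89.5 in the DRGs and 181 in soleus.

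Far more miRNAs were lower than higher after entrapment. By limma with Benjamini-Hochberg adjustment, 38 miRNAs of 219 tested were lower after entrapment (17.4%) and 5 were higher (2.28%). The fall was deepest for miR-190, miR-125a-3p and miR-872*, miRNAs with low signals on the sham array that reached or approached the floor after entrapment. The 5 that rose were miR-29a, miR-29b, miR-29c*, miR-338 and miR-30a*, and none rose by 2-fold. Over all tested miRNAs the median log2 difference was -0.11. Of the called miRNAs, 11.6% were higher. That split depended on how the arrays were set level. Without scaling the median moved by -0.35 and 67 were lower and 0 higher, quantile normalization moved it by 0.19 and gave 22 lower and 44 higher, and rank-consistent loess against sham gave 30 and 11. With 1 array left out at a time, 35 to 56 were lower and 2 to 16 higher. The 16 came without entrapment 1, while leaving out decompression 2 or 3, any denervation array or entrapment 2 or 3 gave 2 or 3 higher. The sham group had 1 array, so limma took its spread from the 9 injury arrays and assumed that sham varied like them, and these p-values cover the spread between arrays only. Asking instead for at least a 2-fold difference on each of the 3 entrapment arrays gave 24 lower (11.0%) and 0 higher (0.0%), and 37 lower without entrapment 3. Of these 24, 20 were also called by limma. The 4 others were miR-207, miR-338*, miR-346 and miR-350, all of which varied widely between the entrapment arrays. Of these, miR-346 and miR-350 passed the filter through the sham and denervation arrays alone, which favoured a fall in them. miR-207 is named here after its values were seen. At an unadjusted p under 0.05, limma gave 66 lower (30.1%) and 15 higher (6.85%). Each entrapment array on its own had 32 to 47 of the tested miRNAs at least 2-fold below sham and 0 at least 2-fold above it.

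**Figure D1:**
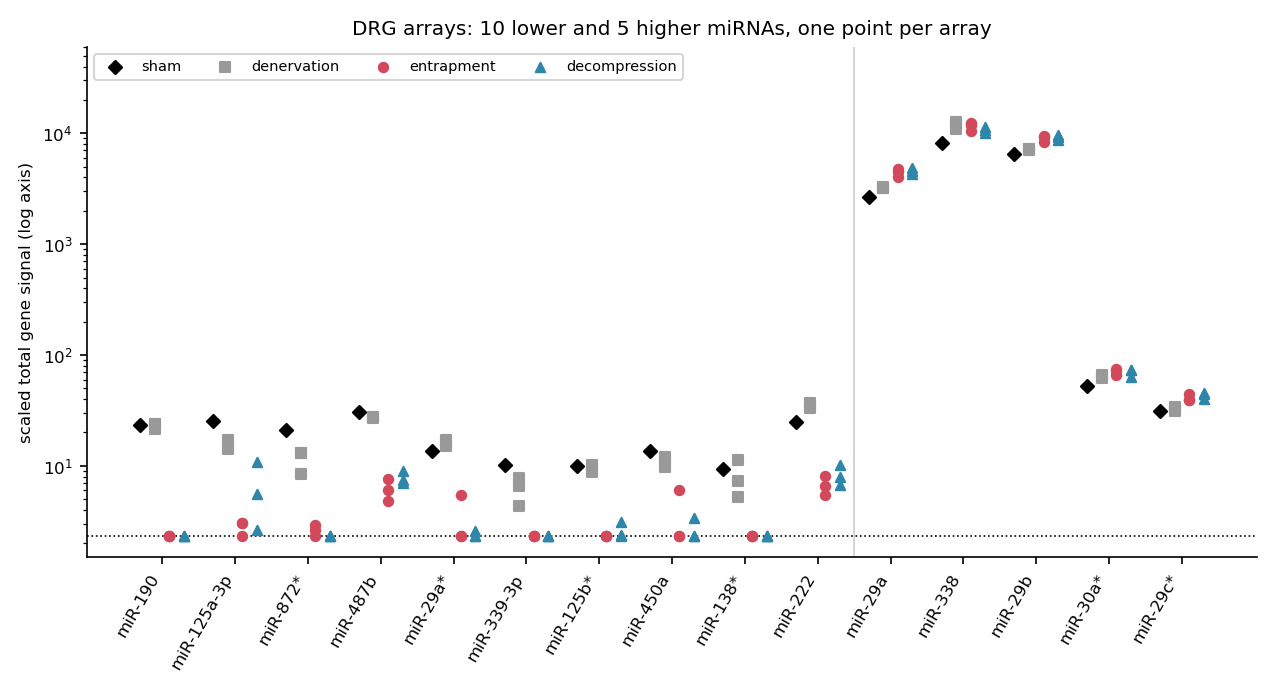
Scaled total gene signal (log axis) on each of the 10 DRG arrays for the 10 miRNAs that fell most and the 5 that rose after entrapment by limma against sham, with values below the floor (dotted line, 2.31) drawn on it. For each of the falling miRNAs the entrapment and decompression points lie below the sham and denervation points, and the rising miRNAs differ by less than 2-fold.

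On the sham array miR-190 reached a scaled signal of 23.2, and it was not detected on any entrapment array, where its signals were -2.81 to -2.02, below the floor. The difference was at least 8.88-fold (log2 -3.32 at the floor). miR-190, miR-872*, miR-339-3p, miR-450a and miR-138* passed the filter through the sham and denervation arrays alone, which favoured a fall in them, so no test value is given for them here. On the denervation arrays miR-190 gave 21.4, 23.6 and 23.8, so those 3 lay beside sham and the entrapment arrays lay apart from both. The decompression arrays gave -1.67 to -1.26 for it, also below the floor. miR-125a-3p had 25.1 on sham and 1.84, 3.06 and 3.08 after entrapment, at least 8.75-fold lower (log2 -3.17). Its denervation signals of 14.2 to 17.0 lay between, and its decompression signals ran from 2.61 to 10.9. It was detected on no entrapment array and on 1 decompression array, so it passed the filter only with the sham and denervation arrays. That favoured a fall in it, and no test value is given for it either.

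miR-872* fell from 20.9 on sham to signals of -1.84 to 2.90, not detected on any entrapment array and at least 7.64-fold lower (log2 differences of -3.17 to -2.85). miR-487b, a member of the large imprinted Dlk1-Dio3 cluster, gave 30.8 on sham and 4.81, 6.11 and 7.55 after entrapment, at least 5.09-fold lower (log2 -2.35, adjusted p = 0.00019). The denervation arrays had 26.8 to 27.5 for it, close to sham. miR-222, a miRNA of the miR-221/222 hairpin pair known to respond to nerve injury in Schwann cells and neurons, was at 25.1 on sham and 5.42 to 8.12 after entrapment, at least 3.79-fold lower (log2 -1.92). Like miR-125a-3p, it was detected on no entrapment array and on 1 decompression array. The filter therefore favoured a fall in it, and no test value is given for it. It was higher after denervation, at 33.2 to 36.8, so entrapment and denervation lay on opposite sides of sham. In a fit of the 4 arrays of sham and entrapment alone, miR-487b and miR-222 missed the threshold.

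The remaining 5 of the 10 deepest falls among the miRNAs called by limma were miR-29a*, miR-339-3p, miR-125b*, miR-450a and miR-138*, with log2 differences from -2.16 to -2.01. Their sham signals were 9.34 to 13.7. The calls of miR-125b*, miR-138* and miR-450a were lost after quantile normalization, that of miR-29a* with the 4 arrays alone, and those of miR-872*, miR-29a* and miR-450a with a far lower floor of 0.01. Of the 3 entrapment arrays, miR-125b* was detected on 1 and the other 4 on none. Entrapment 3 was the mildest array for miR-29a* and miR-450a, with log2 differences of -1.34 and -1.18, where entrapment 1 and 2 were at the floor at -2.57 and -2.56. For miR-190, miR-339-3p, miR-125b* and miR-138* all 3 entrapment arrays lay at the floor, so their equal values carry no order and their spread is not that of measured signals.

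**Figure D2:**
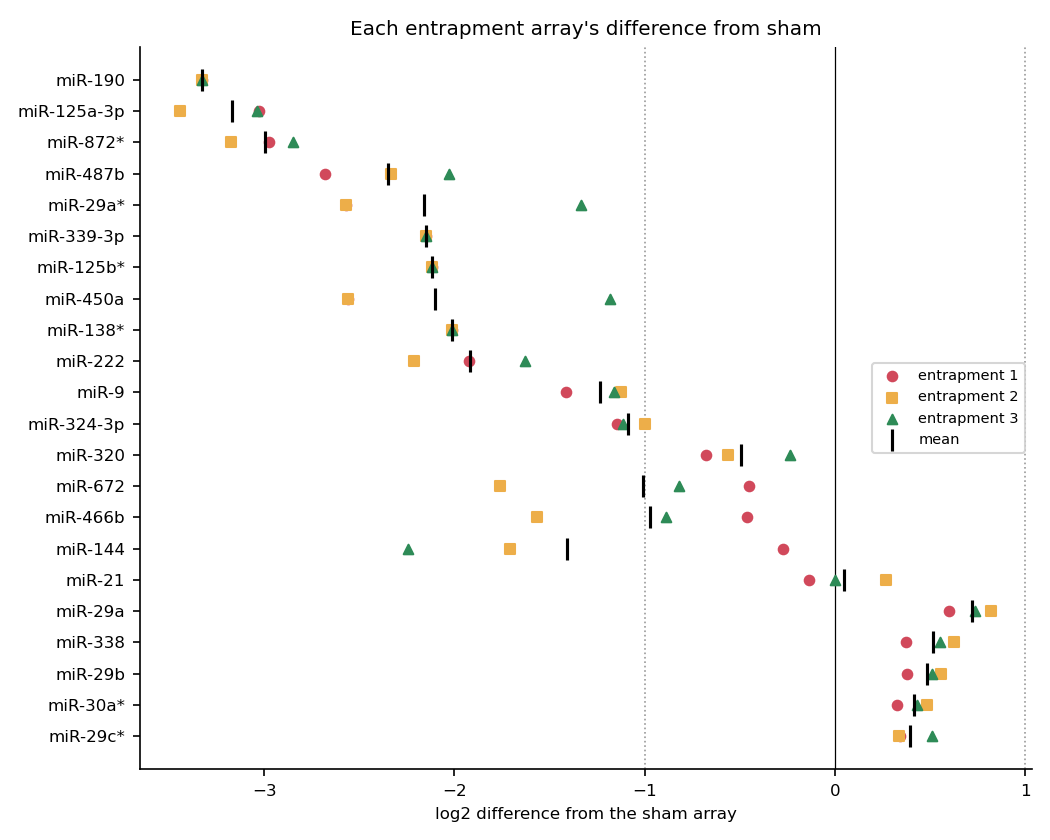
Log2 difference of each entrapment array from the sham array (points) and their mean (bars) for the 10 deepest falls called by limma, the 7 miRNAs that the paper names for the DRGs and the 5 that rose, with dotted lines at 2-fold. Most falls at the top are alike on the 3 arrays, with miR-29a* and miR-450a milder on entrapment 3, while miR-144, miR-672 and miR-466b run from under 1.5-fold to over 2-fold between arrays.

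Detection changed in 1 direction. The sham array detected 233 of the 348 miRNAs and the entrapment arrays 183, 184 and 186, while the denervation arrays detected 213 to 225. The decompression arrays detected 187 to 200. Of the 115 miRNAs that sham did not detect, 0 were detected on an entrapment array. Of the 233 that it did, 174 were detected on all 3 entrapment arrays, 10 on 2, 11 on 1 and 38 on none. The 38 lost miRNAs had sham signals of 2.70 to 31.0, with a median of 9.82 against 89.2 for the 174 that were kept. Of the 38, 19 were still detected on all 3 denervation arrays, and 25 were detected on no decompression array. The strongest of the 38 on sham was miR-346 at 31.0, with entrapment signals of 7.69, -2.58 and 11.9 (log2 -2.38). It was not called by limma. It too passed the filter through the sham and denervation arrays alone, so no test value is given for it. Loss of detection was not always loss of signal. miR-1*, the minor strand of the muscle miRNA miR-1, had 13.8 on sham and 12.2 to 13.9 on the entrapment arrays, where it was not called detected. Of the tested miRNAs, 13 had passed the filter through the sham and denervation arrays alone, so that the filter itself favoured a fall in them, and 8 of them were among the 38 called lower. Those 13 had no detection on any entrapment or decompression array. miRNAs with fewer than 3 detections there, such as miR-125a-3p, miR-222 and miR-29a*, also needed the sham and denervation arrays to pass. They were not counted, so the filter favoured more than 8 of the 38 calls. Among the 173 miRNAs detected on all 10 DRG arrays, the fit over all 219 called 19 lower and 5 higher.

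The differences followed the signal level. Levels were taken from the denervation arrays, which are no side of the contrast. The 18 miRNAs with a mean scaled signal under 10 there had a median log2 difference from sham of -0.99, and the 52 between 10 and 30 had -0.77. The median was -0.11 for the 67 between 30 and 100, 0.01 for the 31 between 100 and 300, 0.11 for the 26 between 300 and 1000, and 0.24 for the 25 at 1000 or more. The low-signal miRNAs therefore lay below sham and the strongest slightly above it. The rank correlation of level and difference was 0.56 over the 219 miRNAs, which share the same 4 arrays and are not independent. It was 0.40 over the 173 detected everywhere, whose median between 10 and 30 was -0.25 (n = 23). Each entrapment array showed the order, with medians between 10 and 30 of -0.77, -0.87 and -0.46 and at 1000 or more of 0.11, 0.33 and 0.27. The denervation arrays, set against the same sham array, had medians of -0.29 under 10, -0.12 between 10 and 30, and 0.28 at 1000 or more. A signal depends on the probe as well as on the miRNA, so the order is one of array signals, not of RNA amounts. Of the 38 miRNAs called lower, 32 were among the 137 below a level of 100 and 6 among the 82 at 100 or more. These 6 were miR-9, miR-212, miR-324-3p, miR-30c, miR-30b-5p and miR-125a-5p, the last of them named here after its values were seen.

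**Figure D3:**
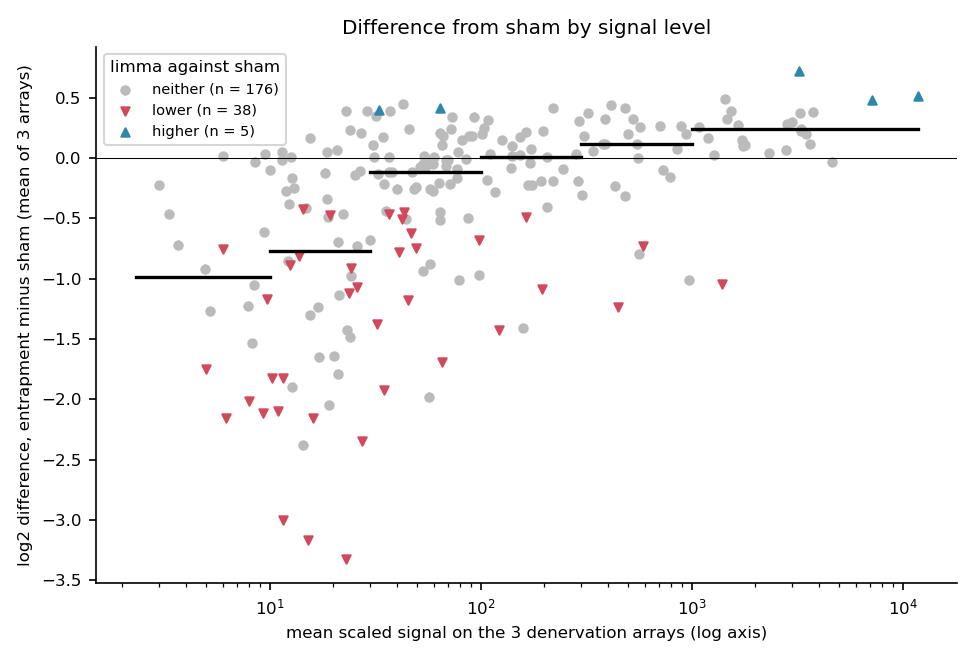
Mean log2 difference of entrapment from sham against the mean scaled signal on the 3 denervation arrays (log axis) for the 219 tested miRNAs, with the miRNAs called by limma in colour and black bars for the median of each level bin. The medians climb from -0.99 at the lowest levels to 0.24 at the highest, and only 6 of the 38 lower miRNAs lie at a level of 100 or more.

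Among these 6, miR-9 was the miRNA with the deepest fall after miR-212 and is known as a brain-enriched regulator of neuronal differentiation. It had 417 on the sham array, 156, 191 and 186 on the entrapment arrays and 396 to 504 after denervation. The 3 entrapment arrays lay below all 4 sham and denervation arrays, 2.35-fold under sham (log2 -1.23, SE 0.16, limma adjusted p = 0.000971). miR-9*, the other strand of the same hairpins, had 279 on sham and 282, 350 and 322 after entrapment (log2 0.18, adjusted p = 0.367). miR-212, a miRNA of the neuronal activity-responsive miR-212/132 locus, went from 116 on sham to 37.3, 47.5 and 44.6 after entrapment, 2.69-fold lower (log2 -1.43, SE 0.21, adjusted p = 0.00184), with 111 to 143 after denervation. In the fit of the 4 arrays alone, 19 miRNAs were lower and 0 higher. The 5 that rose lost their calls in it, and so did 10 of the named lower miRNAs, miR-9, miR-212 and miR-30b-5p among them at an adjusted p of 0.0557 each.

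miR-324-3p had 230 on sham and 104, 115 and 106 after entrapment, 2.12-fold lower (log2 -1.09, SE 0.13, adjusted p = 0.000581), and the denervation arrays stood between, at 178 to 213. Its partner miR-324-5p, named after its values were seen, had 84.8 on sham and 86.2, 102 and 94.4 after entrapment. So for miR-9 and miR-324 the strand with the higher array signal was the lower one after entrapment.

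miR-30c belongs to the miR-30 family, a set of widely expressed miRNAs with 1 shared seed. It had 1258 on sham and 586, 622 and 621 after entrapment, against 1386 to 1419 after denervation. The fall was 2.06-fold and nearly equal on the 3 arrays (log2 -1.10, -1.02 and -1.02, SE 0.09, adjusted p = 6.75e-05). miR-30b-5p, with 543 on sham, 306 to 343 after entrapment and 564 to 622 after denervation, was 1.66-fold lower (adjusted p = 0.0017). miR-30a was at 777 on sham and 772, 853 and 833 after entrapment (log2 0.07, SE 0.10, adjusted p = 0.606). miR-30e was at 432 on sham and 344 to 391 after entrapment (log2 -0.23, adjusted p = 0.144). Compared base by base from the 5′ end, miR-30a and miR-30e are equal at 21 of 22 positions, and miR-30c is equal to each of them at 17. Across the family, 2 of 9 tested members fell, 1 rose and 6 did not pass, with a median of -0.19 (0.11 after quantile normalization). Over all 219 tested miRNAs, 17.4% fell and 2.28% rose, with a median of -0.11. The member that rose was miR-30a*, at 52.9 on sham and 66.4, 74.2 and 71.5 after entrapment (log2 0.42, adjusted p = 0.0462), and its denervation signals of 62.1 to 66.6 overlapped the entrapment range, so here the sham array stood apart. Its call was lost in 7 of the 9 fits that left out 1 array.

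The miR-29 family, known as a repressor of collagen and other matrix genes, held 3 of the 5 miRNAs that rose. miR-29a had 2679 on sham and 4061, 4741 and 4461 after entrapment, all above the denervation signals of 3207 to 3278, 1.65-fold over sham (log2 0.72, SE 0.12, adjusted p = 0.00336). miR-29b was at 6457 on sham and 8390, 9515 and 9218 after entrapment, 1.40-fold higher (adjusted p = 0.0148), and it too lay above the denervation arrays. miR-29c*, at 31.3 on sham and 39.5 to 44.5 after entrapment, rose 1.32-fold (adjusted p = 0.0462). miR-29c, with 1212 on sham and 1443, 1672 and 1660 after entrapment, missed the threshold (log2 0.39, adjusted p = 0.057) and overlapped the denervation range of 1519 to 1565. The same hairpin as miR-29a gave the opposite on its other strand: miR-29a* had 13.7 on sham and 0.0983, 0.813 and 5.44 after entrapment, at least 4.46-fold lower. miR-29a* was detected on no entrapment array and on 1 decompression array, so the filter favoured a fall in it and no test value is given for it. The median of the 5 tested members was 0.40, and it stayed above zero under each scaling tried, down to 0.04 without scaling. miR-29a kept a difference of 0.33 to 0.72 over those scalings and lost its call without scaling (adjusted p = 0.236) and in the fit of the 4 arrays alone (0.0798), miR-29b lost it without scaling and under quantile and loess normalization, and miR-29c* lost it in 7 of the 9 fits that left out 1 array.

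miR-338 is carried in an intron of the neuronal kinase gene Aatk in mammals and is abundant in myelinating glia. It had 8098 on sham and 10502, 12494 and 11870 after entrapment (log2 0.52, SE 0.13, adjusted p = 0.029). The call was lost without denervation 3 (adjusted p = 0.051) or entrapment 2 (0.0669), without scaling and under quantile and loess normalization. The denervation arrays read 11035 to 12640, so entrapment did not part from denervation (log2 -0.03, adjusted p = 0.86). miR-338* gave 20.2 on sham and 5.68, 2.32 and 8.87 after entrapment (log2 -2.04, adjusted p = 0.0607).

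Both strands of 31 hairpins were tested. The strand with the lower array signal had the lower difference in 22 of them and the strand with the higher signal in 9, with medians of -0.69 and -0.16. The dimmer strand was called lower in 9 pairs and the brighter in 4. Some of these dimmer strands, miR-872* and miR-138* among them, passed the filter through the sham and denervation arrays alone, which favoured a fall in them. miR-126, the endothelial miRNA of the Egfl7 locus, is an example, with 564 on sham and 529, 584 and 579 after entrapment (log2 0.00, adjusted p = 0.995). miR-126* had 66.0 on sham and 19.1, 19.9 and 22.5 after entrapment, 3.22-fold lower (log2 -1.69, SE 0.12, adjusted p = 4.03e-05), with 60.6 to 68.1 after denervation. In the neuronal miR-138 hairpin, miR-138 was at 1035 on sham and 855 to 998 after entrapment (log2 -0.16), and miR-138* was lost. In the 16 pairs with both strands detected on all 10 arrays, the dimmer strand was the lower one in 9, and the medians were -0.12 for the dimmer and -0.15 for the brighter strands.

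**Figure D4:**
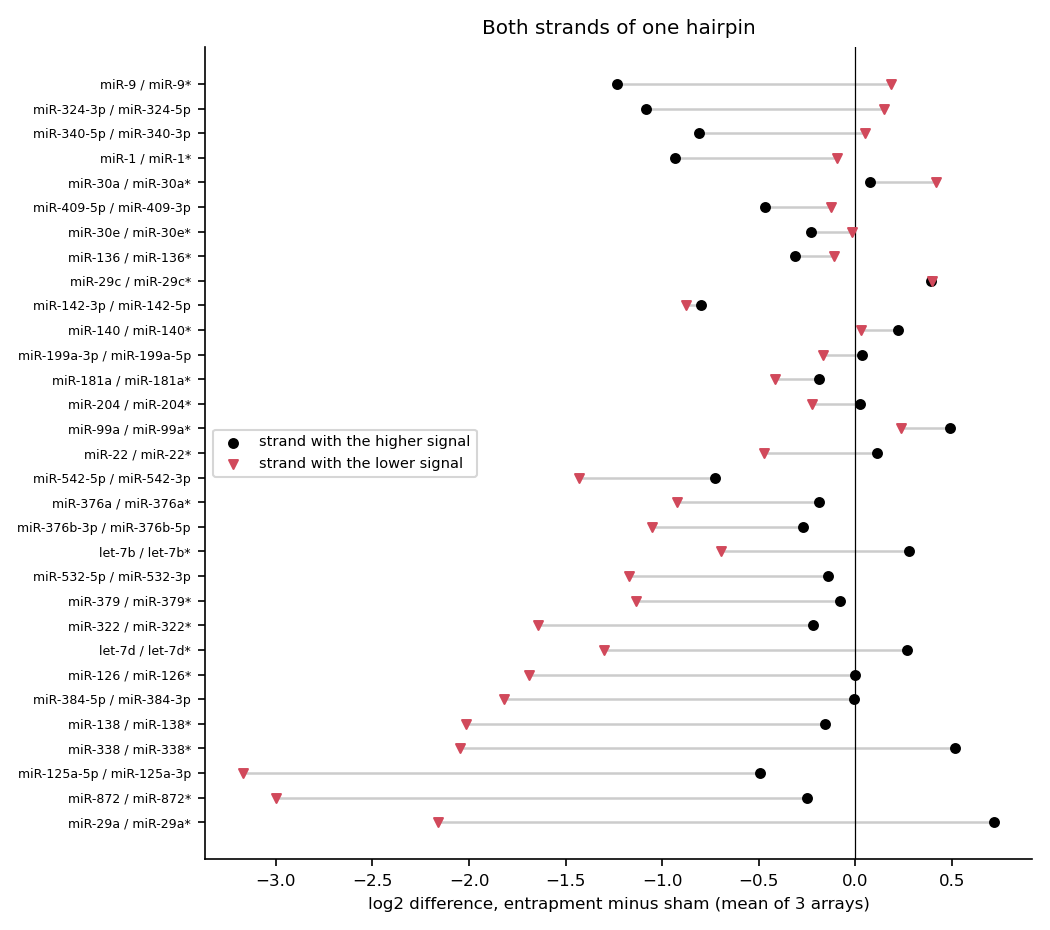
Mean log2 difference of entrapment from sham for both strands of the 31 hairpins with both strands tested, the strand with the higher signal on the denervation arrays in black and the other in red. The red points run down to -3.17 while most black points lie within 0.5 of zero, and miR-9 and miR-324-3p at the top go the other way.

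The fixed lists put these miRNAs beside their groups, and each list is to be read against the medians and shares of all tested miRNAs given above. In the neuronal list, 2 of 11 tested members fell (miR-9 and miR-212) and 9 did not pass, with a median of -0.02 (0.13 after quantile normalization). miR-124 was at 716 on sham and 720, 795 and 817 after entrapment (log2 0.12, adjusted p = 0.466), and miR-137, another neuron-enriched miRNA, at 879 and 758 to 872. The 3 members of the sensory miR-183 cluster all missed the threshold. miR-183 was at 329 on sham and 382 to 426 after entrapment, above the 271 to 305 of the denervation arrays (log2 0.31 against sham, adjusted p = 0.0734). miR-96 stood at 1888 on sham and 1923 to 2196 after entrapment, and miR-182 at 345 and 257 to 298 (log2 -0.31, adjusted p = 0.14).

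In the list of miRNAs reported to respond to nerve injury, 2 of 11 tested fell (miR-222 and miR-212), 0 rose and the median was -0.27. miR-21, known to rise in DRG neurons after axotomy, was at 954 on sham and 869, 1150 and 955 after entrapment (log2 0.05, SE 0.15, adjusted p = 0.87). On the denervation arrays it read 2292 to 2368, and entrapment lay below denervation by 1.24 on the log2 scale (adjusted p = 4.1e-05). miR-34a, a p53 target, was at 1295 on sham and 1320 to 1626 after entrapment, with 889 to 1017 after denervation (log2 0.66 for entrapment minus denervation, adjusted p = 0.00083). miR-221 shares the seed of miR-222 and starts 564 bases from it on the X chromosome. It was at 39.2 on sham and 34.9, 37.5 and 38.9 after entrapment (log2 -0.08, adjusted p = 0.591) and is named after its values were seen. The 2 miRNAs are equal at 8 of the first 8 positions and at 3 of the 13 compared after them.

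In the Dlk1-Dio3 list, 2 of 34 tested fell (miR-487b and miR-541) and 32 did not pass, with a median of -0.12 (0.15 after quantile normalization). miR-541 was at 27.0 on sham and 10.9 to 14.7 after entrapment (log2 -1.07, adjusted p = 0.00649), a call lost after quantile normalization (0.179) and with the 4 arrays alone (0.12). Of the 4 members with the highest signals, miR-127 was at 393 on sham and 382 to 464 after entrapment, and miR-434 at 206 and 188 to 218. The others lay below sham on all 3 entrapment arrays without passing. These were miR-136 at 516 and 395 to 440 (log2 -0.31, adjusted p = 0.0727) and miR-376a at 337 and 266 to 329 (log2 -0.19, adjusted p = 0.371). None of the 8 let-7 members, the most abundant family of many adult tissues, passed the threshold, although all 8 had means above sham, from 0.02 to 0.37 (median 0.25, turning to -0.11 without scaling), and let-7c missed it with 2609 on sham and 3008 to 3638 after entrapment (adjusted p = 0.0961). In the miR-17/92 list, miR-19a fell (30.3 on sham, 13.2 to 19.6 after entrapment, log2 -0.91, adjusted p = 0.0198) and 7 of 8 did not pass. Its call held in 16 of 22 settings, with a difference of -0.33 on the processed values and an adjusted p of up to 0.332. The miR-15/16 list had 0 of 5 past the threshold and a median of 0.10 (-0.26 without scaling), with miR-16 at 1427 on sham and 1487 to 1586 after entrapment.

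miRNAs of other cell types moved in part. In the list for vessels, miR-126* and miR-145 fell and miR-126 and miR-143 did not pass. miR-145, known for smooth muscle, was at 48.0 on sham and 20.8, 21.1 and 22.0 after entrapment (log2 -1.17, adjusted p = 0.00344), while miR-143, made with it, was at 871 and 1020 to 1083 (log2 0.27, adjusted p = 0.337). The summed level of the list was 1549 on sham and 1614 to 1709 after entrapment. In the mesenchyme list, miR-145 again was the 1 of 6 that fell. In the list for skeletal muscle, miR-133a fell from 14.9 to between 7.40 and 8.84 (log2 -0.88, adjusted p = 0.0204) and 4 of 5 did not pass. The call of miR-133a held in 17 of 23 settings, and after quantile normalization the difference was -0.11 (adjusted p = 0.796). The median of the list was -0.88, and 3 of its 5 tested members had means below sham. Besides miR-133a these were miR-1 (log2 -0.93, adjusted p = 0.179) and miR-206 (log2 -1.79, adjusted p = 0.129). The list summed to 327 on sham and 255 to 346 after entrapment. Most of that sum was miR-133b, at 189 on sham and 184 to 247 after entrapment. None of the 6 tested leukocyte miRNAs passed, with a median of -0.46. Their sum was 1111 on sham, 719 to 820 after entrapment and 923 to 1413 after denervation. miR-142-3p read 585 on sham and 425, 338 and 265 after entrapment (log2 -0.80, adjusted p = 0.125). In bulk RNA, fewer cells of a type and less miRNA per cell cannot be told apart.

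The red blood cell miRNAs divided the entrapment arrays. miR-451 was at 2561 on sham and 2513, 1044 and 784 on entrapment 1, 2 and 3 (log2 -1.01, adjusted p = 0.356). miR-144, from the same transcript, was at 489 on sham and 404, 150 and 103 (log2 differences of -0.27, -1.71 and -2.24, adjusted p = 0.247). Entrapment 1 lay near sham and the other two lay within or just below the denervation range of 108 to 220 for miR-144. How far blood content set these values was not tested.

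**Figure D5:**
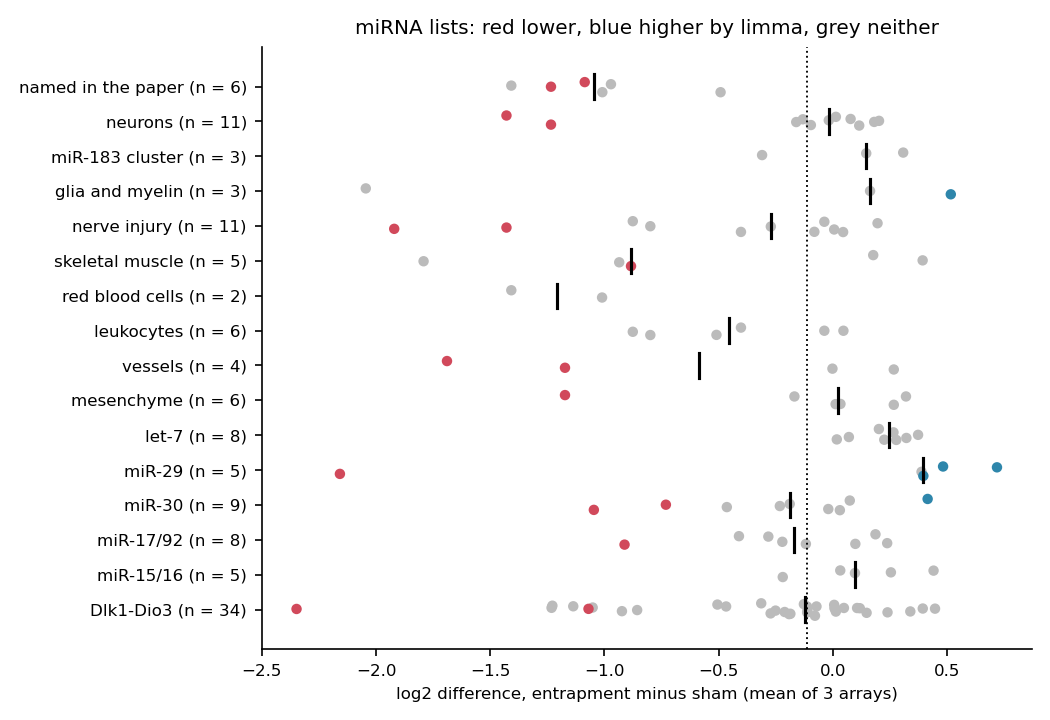
Mean log2 difference of entrapment from sham for the tested members of each list (points, red lower and blue higher by limma, grey neither), with a bar for the list's median and a dotted line for the median of all tested miRNAs (-0.11). Most list medians lie within 0.5 of zero, and each list holds at most 2 red points among grey ones.

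The 6 miRNAs that the study names as lower in this group are not independent evidence, because they were chosen on the study's own arrays. The processed values name the entrapment and decompression arrays the other way round. It is therefore not known whether the choice used the arrays labelled entrapment here or those labelled decompression. All 6 had means below sham, 2 passed limma (miR-9 and miR-324-3p), and miR-9 alone was at least 2-fold lower on each array, since miR-324-3p was just short of 2-fold on entrapment 2. miR-320 was at 17.7 on sham and 11.1, 12.0 and 15.0 after entrapment (log2 -0.49, SE 0.23, adjusted p = 0.149), under 2-fold on all 3 arrays. miR-672 was at 141 on sham and 103, 41.6 and 79.8 (log2 -0.45, -1.76 and -0.82, adjusted p = 0.144). miR-466b, which comes from the Sfmbt2 locus, was at 178 and 130, 60.3 and 96.3 (log2 -0.46, -1.56 and -0.89, adjusted p = 0.111). These 2 shared the order of the arrays, with entrapment 2 lowest. Both also read low on all 3 denervation arrays, at 58.9 to 89.8 for miR-672 and 76.2 to 118 for miR-466b, so that the sham array stood above the other groups.

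Against denervation, which does not share the sham array, entrapment was lower for 72 of the 219 miRNAs (32.9%) and higher for 18 (8.22%) by limma. Of the 219, 13 had passed the filter through the sham and denervation arrays alone, miR-190 among them. The filter favoured a fall against denervation too in these 13, and in the uncounted miRNAs with fewer than 3 detections on the entrapment and decompression arrays. The difference from sham and the difference from denervation share the entrapment arrays, so their values are given side by side only. Of the 38 miRNAs lower than sham, a choice that used the sham array, 37 lay below all 4 sham and denervation arrays, where 72 of all 219 did (32.9%). The exception was miR-335, named after its values were seen, at 50.5 on sham, 34.5 to 39.4 after entrapment and 36.2 to 38.0 after denervation. Of the 5 that rose, miR-29a, miR-29b and miR-29c* lay above all 4, as did 19 of the 219 (8.68%). For miR-190, the difference was -3.32 from sham and -3.31 from denervation, and for miR-30c -1.05 and -1.20.

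Against decompression, limma called 0 miRNAs lower (0.0%) and 0 higher (0.0%), with 8 (3.65%) and 1 (0.457%) at an unadjusted p under 0.05. All 38 miRNAs called lower than sham after entrapment also had means below sham after decompression, 22 of them by 2-fold or more. Both differences use the same sham array. With the entrapment and decompression files exchanged, as the processed table names them, limma gave 36 lower and 4 higher than sham. The single sham array carries an error of its own. The scanner software gave errors for its signals with a median of 8.14% of the signal, and 45 of the 219 miRNAs lay below sham and 3 above it by more than 2 combined errors on all 3 entrapment arrays, 28 of the 38 called lower and 3 of the 5 called higher among them. That error is one of measurement on 1 array, not of rats.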

How the data were processed

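DRG total RNA was measured on Agilent rat miRNA arrays in 1 colour. The authors deposited the scanner output of Agilent Feature Extraction 9.5.3, in which the total gene signal is a linear intensity summed over probes after background subtraction, with an error and a detection call, and not normalized between arrays. A further deposited table holds processed values, a signal per miRNA. For the 6 entrapment and decompression DRG columns these equal scanner intensities over 1 constant per column (84.8 to 104), but those of files labelled as the other group. Groups followed the scanner labels. The labels describe labelling with Cy3-CTP and the Methods ligation of pCp-Cy3, and the Methods' LOWESS step has no stated settings and could not be repeated as such.

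From the 350 miRNAs, 2 with differing names were left out. Signals were scaled to the 75th percentile over the other 348, floored at 2.31 (the median over the 10 DRG arrays of the lowest detected scaled signal) and log2-transformed. limma 3.58.1 (R 4.3.3; lmFit, eBayes, two-sided) was fitted to 10 arrays with group as the only term (6 residual and 2.12 prior degrees of freedom), with Benjamini-Hochberg adjustment over 219 miRNAs at 0.05. A bound ("at least N-fold") is given where no entrapment array detected a miRNA: the sham signal over the entrapment mean, taken on the log2 scale, of, per array, the higher of its own signal and that array's lowest detected one. Named miRNAs were those the paper names for the DRGs, the 10 lower and 10 higher with the largest mean difference past the threshold, up to 10 lost or gained in detection, and from each list the members past the threshold and the 4 with the highest signal. Members, lists and tests were chosen with earlier results of these data known. Scripts were tested on simulated data. Alternatives were no scaling, median scaling, quantile and rank-consistent loess normalization, the percentile over miRNAs detected on all arrays, 2 filters, 2 treatments of low signals, the processed values, exchanged files, a replicate block, only both groups, an intensity trend, other fold rules, and leaving out single arrays. The number of arrays limits the precision. No file used here separates slides or scans, and no test for such batches was run. Python 3.11.15 and matplotlib 3.10.9 were used for the figures.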

Additional observations from a re-analysis of the deposited data

Results flagged for a closer look

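The control features, which took no part in the comparisons, carried a signal that differed between sham and entrapment. All 7 negative-type control features, meant to bind no miRNA, read higher on each of the 3 entrapment arrays than on the sham array, at -18.0 to 5.53 on sham and -6.95 to 19.3 after entrapment. Of the 20 control features with a signal over 20 on all 10 DRG arrays, 9 were below sham on all 3 entrapment arrays, 2 above and 9 on both sides, with mean log2 differences from -0.75 to 0.23. The part of these shifts in the miRNA differences was not tested.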

How the results depend on the processing

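Among the named miRNAs past the threshold, 0 changed direction under any alternative run, though miR-29b and miR-338 came to 0.00 after quantile normalization. Counts moved. Against sham, the count lower was 19 for miRNAs detected on all 10 arrays, 59 with no filter, 67 with no scaling, 19 with only the arrays of both groups and 22 after quantile normalization, in place of 38. The count higher was 3, 8, 0, 0 and 44 in the same order, 13 with the percentile over miRNAs detected on all arrays, 11 after loess and 2 with the replicate block, in place of 5. Against denervation, the count lower was 42 for miRNAs detected on all 10 arrays, 134 with no scaling and 38 after quantile normalization, in place of 72, and the count higher was 1 with no scaling, 51 after quantile normalization and 37 after loess, in place of 18. By the 2-fold rule, the count lower was 47 at 1.5-fold, 42 on the mean of the 3 arrays, 7 for miRNAs detected on all 10 arrays, 11 after quantile normalization and 14 after loess, in place of 24, and the count higher was 1 at 1.5-fold and 2 after quantile normalization, in place of 0. With single arrays left out, 35 to 56 were lower and 2 to 16 higher than sham, 48 to 67 lower and 11 to 20 higher than denervation, and 25 to 37 lower and 0 higher by the 2-fold rule. The causes were not tested, except that fewer miRNAs or arrays entered some fits. Against decompression the count was 0 under each setting. Replicate numbers were not paired: same-numbered arrays correlated from -0.12 to 0.48, over 0.1 in 4 of 9, and 5 of 9 arrays correlated best with their own number. With the replicate block, 40 were lower and 2 higher than sham. The sham array could not be left out. Signals close to background limit the low miRNAs, and no value here covers the spread between sham rats.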
